A study of Mus musculus with 4 samples.

Results

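AW112010 is a mouse gene annotated as noncoding, and its level was followed here through the T cells of tumors with and without a knockdown of B7-H3. It was taken by name as 1 of the 32285 genes measured, and its UMIs, the unique molecular identifiers that count single RNA molecules, were read in all 4 libraries. The gene was selected on its measured level in these same libraries, which differed between T cell classes, Ccl5 bins and groups, so the levels below are a description and carry no test. In the annotation AW112010 (ENSMUSG00000075010) is a lincRNA gene on the minus strand of chromosome 19, from base 11047612 to base 11055808 of the mouse build GRCm38. It is an RNA of activated lymphoid and myeloid cells, where interferons and inflammatory stimuli raise it. Although labelled noncoding, it has been described to hold a translated open reading frame used in mucosal immunity, and in T cells the RNA has been described to restrain Il10, the gene of an anti-inflammatory cytokine, through the histone demethylase Kdm5a.

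All libraries came from intratumoral live CD3+ T cells, sorted from subcutaneous tumors that Tsc2-deficient 105K renal tumor cells had formed in wild-type C57BL/6J mice, males of 6 weeks at injection per the study's methods. Control tumors carried a non-targeting hairpin (sh-NC, 2 libraries) and knockdown tumors carried 1 hairpin against Cd276, the gene of B7-H3 (sh-B7-H3 (1), 2 libraries). Each group was a pool of 80 tumors loaded in duplicate lanes per the deposited design, so the libraries of a group are read as lanes of 1 pool, and their spread does not speak of other animals. The study's methods also describe pooling by group, while a legend of the study speaks of 2 independent samples per group, which could then hold different tumors. These accounts cannot be told apart here, and by the second one the spread would also hold differences between tumors and sample preparations. RNA and antibody-derived surface tags were counted in the same cells, and how the mice of a pool differed is not given.

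AW112010 has a pair of annotated transcripts. AW112010-201 has 3 exons, 770 bases and a longest ATG reading frame of 78 codons. AW112010-202 starts further upstream, has 625 bases and a longest ATG frame of 60 codons. They share the exon from base 11048279 to base 11048392 and most of the last exon, and reads at the 3' end cannot tell them apart. Only frames that begin with ATG were searched, and which frame is translated was not tested. The promoters of AW112010 and of S100a11 are printed because S100a11, which encodes a calcium-binding protein of activated cells, had the pattern most like that of AW112010 over the 24 sums described below. The sequences are from RefSeq (GRCm38.p6), cover 250 bases before to 50 after the start, and read 5′ to 3′ on the strand of the gene. The AW112010 window is that of AW112010-201 and does not cover the start of AW112010-202, at base 11055808. It lies at chr19:11050517-11050816 (minus strand) and that of S100a11 at chr3:93520246-93520545 (plus strand). Capitals mark the letters of a kappaB decamer in AW112010 and of AP-1 sites in S100a11.
AW112010: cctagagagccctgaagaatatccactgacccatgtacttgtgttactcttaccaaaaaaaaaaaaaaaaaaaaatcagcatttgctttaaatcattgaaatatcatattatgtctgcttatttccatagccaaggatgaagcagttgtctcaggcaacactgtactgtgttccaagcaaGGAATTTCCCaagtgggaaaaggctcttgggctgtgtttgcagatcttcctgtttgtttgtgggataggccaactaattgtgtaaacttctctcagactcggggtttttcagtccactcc
S100a11: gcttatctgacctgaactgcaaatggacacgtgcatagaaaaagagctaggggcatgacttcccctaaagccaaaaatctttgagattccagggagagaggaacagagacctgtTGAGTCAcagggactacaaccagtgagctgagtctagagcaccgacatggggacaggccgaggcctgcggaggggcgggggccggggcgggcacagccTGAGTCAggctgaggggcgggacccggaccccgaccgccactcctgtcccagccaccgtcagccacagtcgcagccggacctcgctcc

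The kappaB decamer of AW112010, GGAATTTCCC, began 70 bases before the start, and 11.2% of 32851 promoters of this length held such a decamer on either strand. The AP-1 letters, TGANTCA, stood at 136 and 38 bases before the start of S100a11 and in 7.81% of all promoters. The AW112010 window held no match to AP-1, to the GAS letters TTCNNNGAA (in 8.30% of promoters), to the ISRE core of a pair of GAAA blocks with 2 bases between them (3.44%), to the RUNX letters TGTGGT (16.8%) or to the T-box letters GGTGTGA (3.98%). Among 16 of the 21 genes most correlated with AW112010 that had a promoter in the table, 4 held the kappaB decamer (B2m, Gzmk, H2-D1 and H2-K1), 4 the RUNX letters, 3 the AP-1 letters and 2 each the GAS, ISRE and T-box letters. These are matches of letters only.

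The libraries held 7030 to 12112 called cells and 79224898 to 132820909 RNA UMIs, of which AW112010 took 528469. After limits on genes, mitochondrial UMIs and doublets, 2980 to 6496 cells per library were kept, with medians of 6360.5 and 6535 UMIs in the knockdown libraries and 7839 and 8339 in the controls. Pairs of libraries shared 17 to 35 cell barcodes, at most 0.427% of the smaller library. Cd276 itself gave 9 to 11 UMIs per library, and T cells are not the cells that carried the hairpin, so it checks nothing here. Cells were called Cd4 (at least 1 Cd4 UMI, under 3 of Cd8a and Cd8b1, no Foxp3), Cd8 (at least 3 Cd8 UMIs, no Cd4 or Foxp3) or Foxp3 (at least 2 Foxp3 UMIs and under 3 of Cd8). Per library these numbered 895 to 1902 Cd4, 1110 to 2703 Cd8 and 156 to 267 Foxp3 cells, which held 190891 AW112010 UMIs. Every class was divided at 20 UMIs of Ccl5, a chemokine of effector T cells. T cell markers (Cd3d, Cd3e, Cd3g and Trac) were present in every class, and their summed level was 2851 to 8779 UMIs per 1000000 RNA UMIs (CPM). Foxp3 cells carried regulatory T cell markers (Foxp3, Il2ra and Ikzf2) at 1798 to 2258 CPM in the lower Ccl5 bin, against 33.5 to 83.0 CPM in Cd4 cells of that bin. Foxp3 is itself part of the class rule, so this contrast was partly set by the rule. The sum of Il2ra and Ikzf2 alone was not read.

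AW112010 was about 4 times as abundant in Cd4 cells of knockdown tumors as in those of control tumors. Its level, in UMIs per 1000000 RNA UMIs of the class, was 781 and 838 CPM in control libraries 1 and 2 and 3246 and 3073 CPM in knockdown libraries 1 and 2. The means were 810 ± 40.1 and 3160 ± 122 CPM (SD, n = 2 each), a ratio of 3.90. The groups did not overlap, as was true of 67.7% of the genes with at least 10 UMIs in these sums, in either direction. Cells with 10 or more AW112010 UMIs made up 11.9 and 13.3% of Cd4 cells in the controls and 51.7 and 50.5% in the knockdown.

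Divided at 20 Ccl5 UMIs, Cd4 cells held very different amounts of AW112010. In Cd4 cells with at least 20 Ccl5 UMIs the level was 6396 and 6519 CPM in the controls and 6194 and 5864 CPM in the knockdown libraries, a ratio of 0.934. There AW112010 was the 8th to 17th most abundant gene, with 41.1 to 45.9 UMIs per cell. The knockdown libraries lay just under the controls, but with TMM-scaled library sizes they overlapped (6140 and 6346 against 6340 and 6130 CPM), and 45.7% of genes in these sums did not overlap either. Ccl5 itself was at 24846.5 and 24517.9 CPM in these control sums and 18038 and 17205.7 CPM in the knockdown sums. The bin thus did not match the groups for Ccl5, and the part of Ccl5 in the ratio was not tested. In Cd4 cells under 20 Ccl5 UMIs AW112010 was at 383 and 367 CPM in the controls and 625 and 698 CPM in the knockdown, a ratio of 1.76. There 49.8% of genes had groups that did not overlap. Within a library, the upper Ccl5 bin exceeded the lower one 16.7- and 17.8-fold in the controls and 9.91- and 8.40-fold in the knockdown.

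In Cd8 cells AW112010 followed the same bins with a smaller span. Over all Cd8 cells it was 1037 and 1089 CPM in the controls and 3161 and 2851 CPM in the knockdown, a ratio of 2.83, and 67.9% of genes had groups that did not overlap. In Cd8 cells with at least 20 Ccl5 UMIs the controls had 3919 and 3812 CPM and the knockdown libraries 5199 and 5005 CPM, a ratio of 1.32. Of these cells 87.7 ± 1.13% in the controls and 95.8 ± 0.677% in the knockdown had 10 or more AW112010 UMIs (SD, n = 2). The groups were apart, as for 50% of genes in these sums. Ccl5 itself was apart as well, at 16304.2 and 16821.3 CPM in the controls and 22284.5 and 22437.3 CPM in the knockdown. The bin thus did not match the groups for Ccl5, and the part of Ccl5 in the ratio was not tested. Summed markers of other cells were apart there too, with gamma-delta T cell markers at 26.8 to 54.7 CPM in the controls and 67.8 to 68.6 CPM in the knockdown, regulatory T cell markers at 94.9 to 104 and 138 to 153 CPM and NK markers at 116 to 119 and 125 to 138 CPM. B cell markers (4.71 to 6.51 against 0.704 to 1.38 CPM) and tumor or stroma markers (24.7 to 27.9 against 16.1 to 18.8 CPM) were lower in the knockdown, myeloid markers overlapped, and the part of these in the ratio was not tested. In Cd8 cells under 20 Ccl5 UMIs the levels were 666 and 657 against 774 and 734 CPM, a ratio of 1.14, beside 51.2% of genes with groups apart. When every cell was thinned to 2000 UMIs, however, 68.2 and 68.1% of these control cells and 63.5 and 64.6% of the knockdown cells had an AW112010 UMI, although the ratio of levels after thinning was 1.16, so no order was read for the lower bin of Cd8 cells.

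Foxp3 cells, the regulatory T cells of the sort, held AW112010 in both Ccl5 bins. Their level was 2371 and 1956 CPM in the controls and 3786 and 3540 CPM in the knockdown, a ratio of 1.69, and 43% of genes had groups that did not overlap. Under 20 Ccl5 UMIs it was 2244 and 1851 CPM against 3736 and 3383 CPM, which was 4.85 to 5.98 times the level of Cd4 cells in the same bin and library. Regulatory markers summed to 1798 to 1923 CPM in these control sums and 2064 to 2258 CPM in the knockdown sums. Ccl5 itself was at 264 and 287 CPM in these control sums and 491 and 650 CPM in the knockdown sums, above the Cd4 cells of the same bin in every library. NK markers summed to 1.15 to 1.25 against 4.32 to 6.42 CPM, and tumor or stroma markers to 25.0 to 29.8 against 32.1 to 34.6 CPM. The part of these in the difference was not tested. Only 11 to 15 Foxp3 cells per library had at least 20 Ccl5 UMIs, and there the groups overlapped (4822 and 4415 against 4492 and 5180 CPM).

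**Figure D1:**
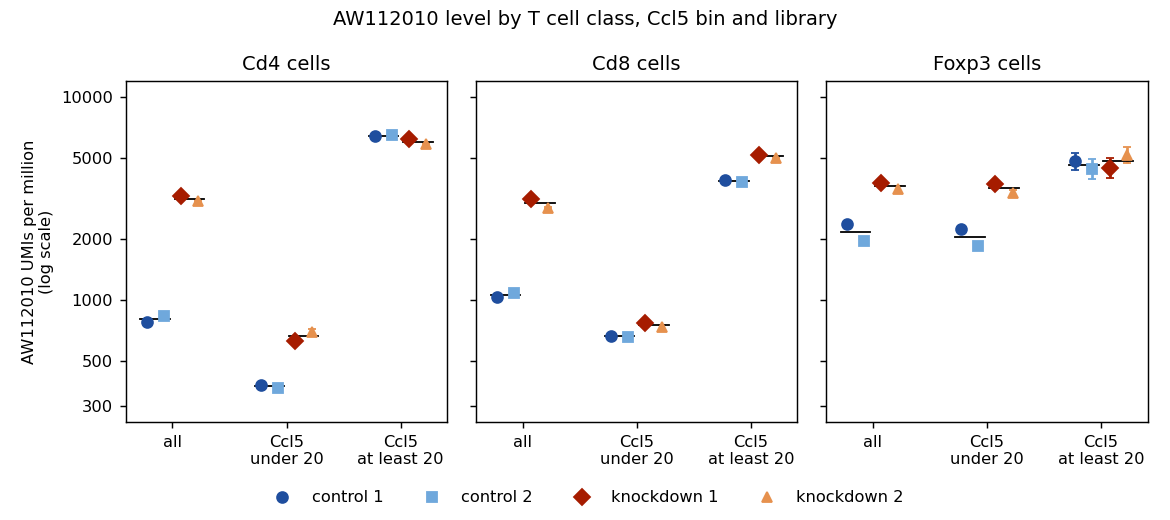
AW112010 UMIs per 1000000 RNA UMIs (log axis) in Cd4, Cd8 and Foxp3 cells, for all cells and for each Ccl5 bin. Points are libraries with 95% Poisson intervals, which cover counting error only and are mostly smaller than the symbols, and black lines are group means. The large gap between groups over all Cd4 cells (781 and 838 against 3246 and 3073) is absent in Cd4 cells with at least 20 Ccl5 UMIs (6396 and 6519 against 6194 and 5864).

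In either group the levels rose in the order Cd4 under 20, Cd8 under 20, Foxp3 under 20, Cd8 at least 20 and Cd4 at least 20, and within each group no neighbors in this order overlapped. When every cell was thinned to 2000 UMIs, however, the first pair overlapped in the knockdown. Mean AW112010 UMIs per cell were then 1.36 and 1.71 in Cd4 cells and 1.56 and 1.51 in Cd8 cells. The shares of these cells with an AW112010 UMI stayed apart, at 47.0 and 50.2% against 63.5 and 64.6%. In the controls the thinned means were apart (0.822 and 0.858 against 1.34 and 1.31), so the first step was read there only. Foxp3 cells of the upper bin, 11 to 15 per library, were too few to be placed. Cd4 cells exceeded Cd8 cells in the upper bin by 1.63- and 1.71-fold in the controls and by 1.19- and 1.17-fold in the knockdown.

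In Cd4 and Cd8 cells the share of cells in the upper Ccl5 bin differed between groups by a larger ratio than the levels within bins. The share was 7.68 and 9.02% of Cd4 cells in the controls and 47.0 and 46.1% in the knockdown, a difference of 38.2 percentage points and a ratio of 5.58. In Cd8 cells it was 14.8 and 18.3% against 62.4 and 58.9%, a ratio of 3.67. In Foxp3 cells it was 4.87 and 4.58% against 7.05 and 9.26%, a ratio of 1.73 beside 1.74 for the level in their lower bin. Shares were not recomputed at equal depth, and the medians of UMIs per cell were higher in the controls. Cells of the upper bin carried 54.2 and 59.6% of the AW112010 UMIs of Cd4 cells in the controls and 89.8 and 87.7% in the knockdown.

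The class levels were then recomputed with 1 ingredient changed at a time. With control levels within bins but the knockdown share of RNA in each bin, Cd4 cells reached 3205 CPM, which is 102% of the difference between the group levels of 809 and 3158 CPM. With knockdown levels and control shares they reached 1045 CPM, 10.0% of the difference. In Cd8 cells shares alone gave 64.7% and levels alone 12.1%, and the rest came with the combination. In Foxp3 cells shares alone gave 5.37% and levels alone 97.3%. Their upper bin held only 11 to 15 cells per library, so its share could carry little. Foxp3 cells without a Ccl5 UMI made up 61.4 and 57.1% of the class in the controls and 19.9 and 15.4% in the knockdown. Such shifts within a bin counted as levels in every class, and no other bin limit was run for this split.

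Finer Ccl5 bins showed where the level changed. In Cd4 cells the median over libraries was 383 CPM with no Ccl5 UMI, 451 CPM with 1 to 4, 3078 CPM with 5 to 14 (8 to 51 cells per library) and 6994 CPM with 100 or more. In Cd8 cells it was 636, 664, 1059 and 5230 CPM in the same bins. On the sides of the limit of 20, the medians were 4628 CPM for 15 to 19 Ccl5 UMIs and 4707 CPM for 20 to 24 in Cd4 cells, and 2018 and 2373 CPM in Cd8 cells. Each of these edge bins held at most 19 cells per library, and the Cd4 ones held 3 and 0 control cells at 15 to 19 and 3 and 2 at 20 to 24, so the Cd4 medians there rest mostly on the knockdown libraries. In both classes the median was lowest without Ccl5 and highest at 100 or more.

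**Figure D2:**
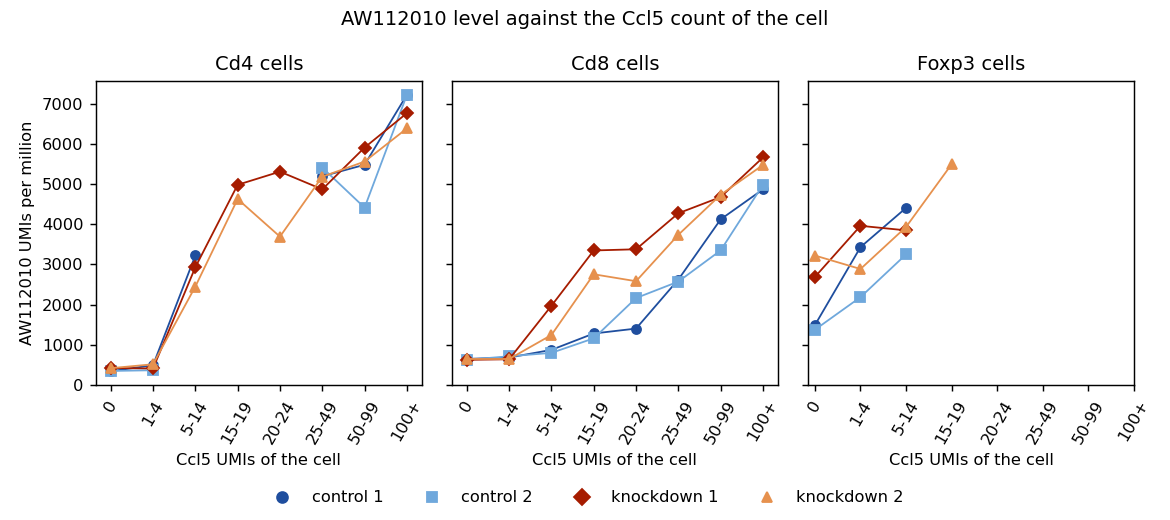
AW112010 UMIs per 1000000 RNA UMIs against the Ccl5 UMIs of the cell (bins of unequal width), with 1 line per library and a point only where a bin held at least 10 cells. Cd4 cells went from a median of 451 CPM at 1 to 4 Ccl5 UMIs to 6994 CPM at 100 or more. Foxp3 cells began higher, at a median of 2090 CPM with no Ccl5 UMI.

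Cells without a Ccl5 UMI separated the classes, but their shares were very unequal. They made up 57.1 to 79.5% of a class in the control libraries and 9.57 to 19.9% in the knockdown libraries. Cd4 cells of this kind held 342 and 348 CPM in the controls and 421 and 417 CPM in the knockdown, a ratio of 1.21. Cd8 cells held 649 and 626 against 625 and 646 CPM, so the groups overlapped at a ratio of 0.997. Foxp3 cells held 1491 and 1375 against 2689 and 3222 CPM, a ratio of 2.06, from 164 and 137 control cells and 31 and 25 knockdown cells.

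Free RNA held AW112010 as well. Barcodes not called as cells, with 1 to 20 UMIs, had 934 and 930 CPM in the control and 1789 and 2015 CPM in the knockdown libraries, a ratio of 2.04, and Ccl5 there was 1459 and 1561 against 4508 and 5219 CPM. The AW112010 level of Cd4 cells under 20 Ccl5 UMIs lay below that of these barcodes in every library. They held 0.640, 0.596, 0.397 and 0.386 AW112010 UMIs per Ccl5 UMI, in the order control 1 and 2 and knockdown 1 and 2, whereas the Cd4 cells of the lower bin held 12.3, 12.1, 2.27 and 2.29. If every Ccl5 UMI in those cells were free RNA, free RNA would bring 5.19, 4.92, 17.5 and 16.9% of their AW112010 level. In Cd8 cells of the lower bin it would bring 5.78 to 12.8%, and in Foxp3 cells 5.21 to 9.25%.

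Other cells of the sort were few. Kept cells with at least 10 UMIs of 6 myeloid markers and no Cd3 UMI (21, 23, 81 and 61 cells in the library order above) had 1372, 938, 1687 and 1397 CPM, and cells with NK or gamma-delta markers had 987 to 3186 CPM. The myeloid levels lay above those of the barcodes not called as cells in control 1, near them in control 2 and below them in both knockdown libraries, and how much of it was free RNA was not tested. The lowest NK or gamma-delta level, 987 CPM in control 2, was near the 930 CPM of its uncalled barcodes. All myeloid markers were detected in Cd4 cells under 20 Ccl5 UMIs, with a summed level of 57.7 to 61.4 CPM in the controls and 92.4 to 198 CPM in the knockdown. Their part in the ratio of 1.76 was not tested. Summed regulatory T cell markers in these sums were 33.5 to 40.6 CPM in the controls and 73.8 to 83.0 CPM in the knockdown, with Foxp3 at 0 by the rule, and NK markers 2.21 to 2.75 against 12.3 to 12.7 CPM, and their part was not tested either. Gamma-delta T cell markers overlapped between the groups at 6.22 to 12.9 CPM. Summed B cell markers overlapped as well, at 2.10 to 3.37 CPM in the same sums. Tumor or stroma markers were apart, at 3.62 to 4.01 CPM in the controls and 4.44 to 7.05 CPM in the knockdown, and their part was not tested.

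Across the cells of a library, AW112010 rose with effector genes and fell with resting genes. Pearson r was computed on log-scaled UMIs within each library, so the points share a lane, a pool and a scaling to depth, and r is given as a description. In Cd4 cells (895 to 1902 cells) the highest values were those of Nkg7, a cytotoxic granule protein (0.70, 0.72, 0.86 and 0.86 in the library order above), and of Cxcr6, a chemokine receptor of tissue T cells (0.70, 0.73, 0.83 and 0.83). Ccl5 followed with 0.69 to 0.84, then Il2rb, a receptor chain for IL-2 and IL-15 (0.66 to 0.80), and Pdcd1, which encodes the inhibitory receptor PD-1 (0.63 to 0.69). S100a11, S100a6, Ctla2a, Id2 and S100a4 completed the first 10. When cells were thinned to 2000 UMIs, 4 of these 10 were still among the first 10 of Cd4 cells, and by Spearman 8 were. The lowest were Tmsb10, Tpt1, Satb1, Lef1 and Rack1, with Lef1, a transcription factor of naive T cells, at −0.45 to −0.66. Of 4804 genes ranked, 77 exceeded 0.3 in every library, 13 lay below −0.3, and the median was 0.03.

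Cd8 cells gave nearly the same names. Ccl5 led with 0.70 to 0.85, and S100a6, Gzmk (a granzyme, 0.61 to 0.68), Ctla2a, S100a4, Nkg7, Cxcr6, Pdcd1, Id2 and Cd3g followed. Of these 10 genes 7 were among the first 10 after thinning and 6 by Spearman. Klf2, a transcription factor of recirculating T cells, was among the 5 lowest at −0.42 to −0.70, with Tpt1, Eef1b2, Tmsb10 and Rack1. The correlation of AW112010 with the depth of the cell was −0.47 to −0.35 in Cd8 cells, −0.26 to −0.05 in Cd4 cells and −0.37 to −0.14 in Foxp3 cells.

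Foxp3 cells (156 to 267 per library) gave a different set. S100a4 was first at 0.61 to 0.66, followed by H2-D1, Srgn, B2m, Maf, Glrx, H2-K1, Ly6a, Ifngr1 and S100a10. H2-D1, H2-K1 and B2m encode the chains of MHC class I, with B2m at 0.57 to 0.71, and Ifngr1 encodes a chain of the interferon-gamma receptor (0.53 to 0.66). Of the first 10 of Cd4 cells, S100a4 alone was also among the first 10 of Foxp3 cells. After thinning 8 of the first 10 genes were still there, and 7 by Spearman. The lowest was Ms4a4b, a tetraspanning membrane protein of T cells, at −0.57 to −0.62, ahead of Eef1b2, Klf2, Bcl2 and Foxp1.

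**Figure D3:**
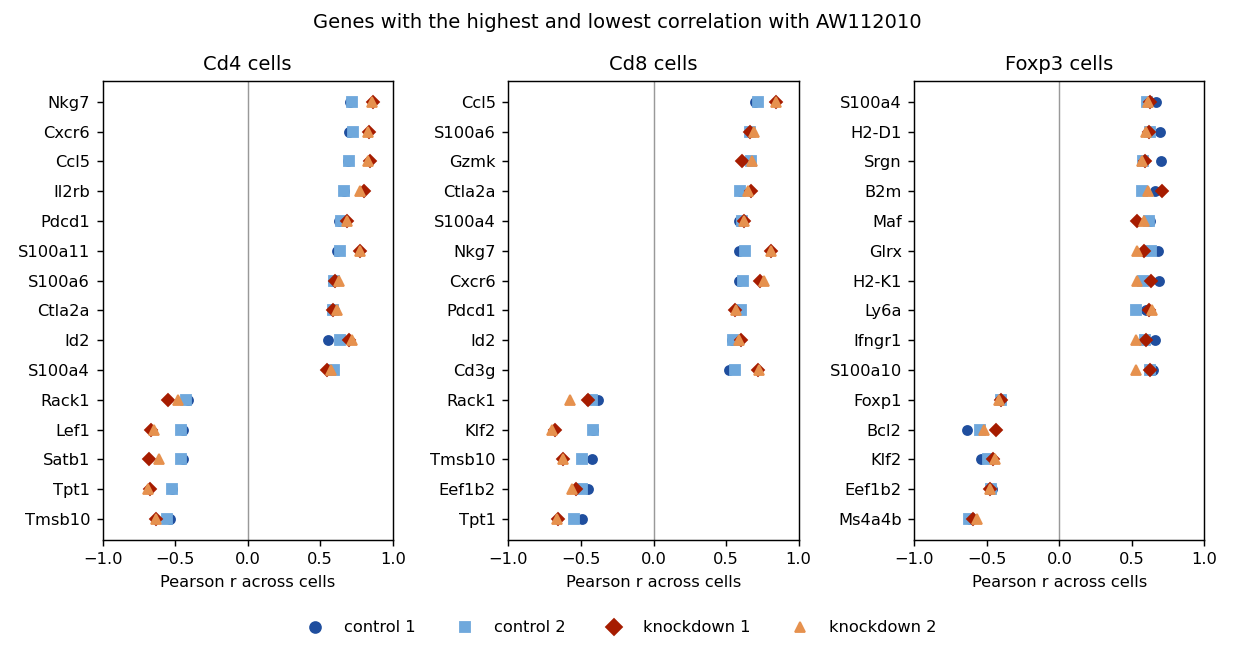
Pearson r across cells between AW112010 and the 10 highest and 5 lowest genes of each class, with 1 symbol per library. The highest gene was Nkg7 in Cd4 cells (0.70 to 0.86), Ccl5 in Cd8 cells (0.70 to 0.85) and S100a4 in Foxp3 cells (0.61 to 0.66).

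Within a Ccl5 bin fewer genes of Cd4 and Cd8 cells exceeded 0.3 in every library, 0 to 3 in place of 77 and 69. In Foxp3 cells under 20 Ccl5 UMIs 65 genes did, as over all Foxp3 cells. In Cd4 cells under 20 Ccl5 UMIs the highest was Tnfrsf4, the costimulatory receptor OX40 (0.38 to 0.42), followed by S100a11, Rgs1, Capg and Id2. In Cd4 cells of the upper bin Ccl5 itself was still the highest at 0.27 to 0.40, and in Cd8 cells of that bin Cd3g (0.34 to 0.65), Tmsb4x and Ccl5 (0.33 to 0.55) led. The lowest gene in Cd8 cells of the upper bin was Ly6c2, which encodes the memory-associated surface protein Ly-6C, at −0.34 to −0.58. In Cd8 cells of the lower bin no gene reached 0.3 in every library. B2m and the immunoproteasome genes Psmb9 and Psmb10 were among the first 4 there.

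Surface protein tags were read in the same cells as another kind of molecule. Over all cells of a class, CD39, the ectonucleotidase of activated and exhausted T cells, had the highest r with AW112010 RNA of 188 tags. It was at 0.67 to 0.85 in Cd4, 0.65 to 0.80 in Cd8 and 0.62 to 0.69 in Foxp3 cells. Within Cd4 cells under 20 Ccl5 UMIs the values were lower and the order changed. There CD54 (0.32 to 0.49), CD38 (0.30 to 0.45) and PD-1 (0.29 to 0.49) came before CD39 (0.28 to 0.52). The values that follow are again over all cells unless a bin is named. CD38, an NAD-consuming ectoenzyme, was at 0.64 to 0.83, 0.64 to 0.81 and 0.35 to 0.56. CD54 was among the first 5 in each class, and PD-1 in Cd4 cells (0.59 to 0.73) and Cd8 cells (0.60 to 0.67). CD127, the IL-7 receptor chain of resting T cells, and CD26 were the lowest of Cd4 and Cd8 cells, with CD127 at −0.51 to −0.68 and −0.52 to −0.67. In Foxp3 cells Ly-6A/E was at 0.49 to 0.52, and under 20 Ccl5 UMIs KLRG1, a receptor of terminally activated cells, was at 0.36 to 0.61. The 9 isotype controls, which bind no mouse antigen, ranged from −0.22 to 0.13 over the 3 classes. In Cd8 cells of the upper Ccl5 bin the Ly-6C tag was the lowest at −0.32 to −0.64, as its gene was.

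**Figure D4:**
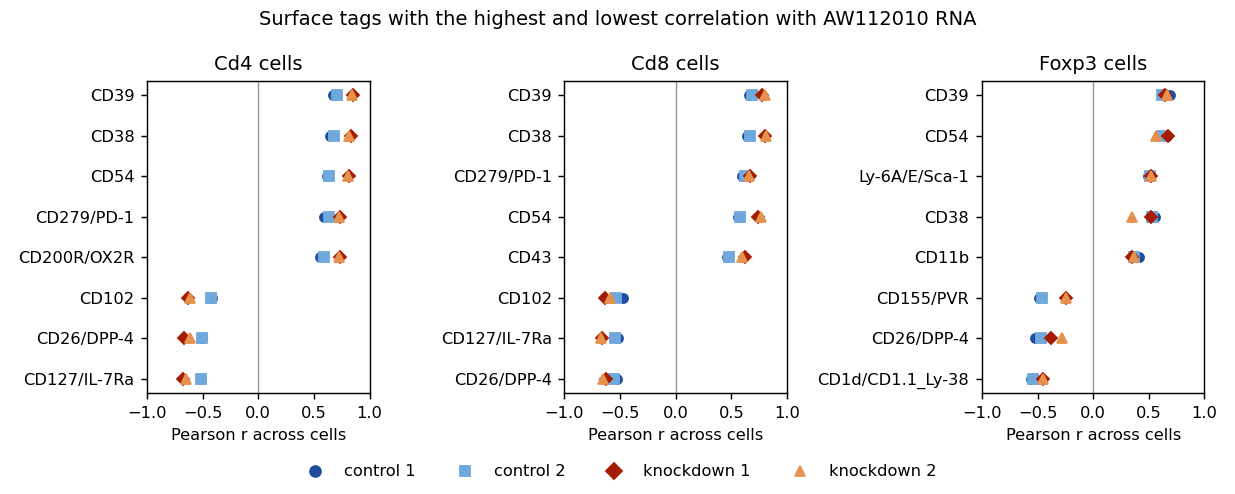
Pearson r across cells between AW112010 RNA and the 5 highest and 3 lowest surface tags of each class, with 1 symbol per library. Over all cells of a class, both Ccl5 bins together, CD39 was the highest tag in Cd4 (0.67 to 0.85), Cd8 (0.65 to 0.80) and Foxp3 cells (0.62 to 0.69).

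Lists of genes placed these names in pathways. All 11 genes of a resting T cell list (among them Ccr7, Lef1, Tcf7 and Klf2) were negative in every library in Cd4 and in Cd8 cells, with medians of −0.47 in each. In Foxp3 cells 8 of 9 ranked members were negative, and Il7r was positive at 0.12 to 0.45. Cytolytic effector genes were positive in every library for 5 of 5 ranked members in Cd4 cells (median 0.26). In Cd8 cells 6 of 7 were (0.30), and in Foxp3 cells 4 of 4 (0.25). Inhibitory receptor genes were so for 2 of 2 (0.56), 3 of 3 (0.40) and 4 of 5 (0.26). In Cd4 cells of the upper Ccl5 bin, however, 3 of 10 cytolytic genes were positive and 5 negative in every library (median −0.02). In Cd8 cells of that bin 9 of 12 were positive and 2 negative (0.14). Interferon-gamma response genes were weakly positive, with 12 of 15 ranked members above 0 in every library in Cd4 cells (median 0.12), 12 of 16 in Cd8 cells (0.11) and 15 of 20 in Foxp3 cells (0.20). Psmb8, an immunoproteasome subunit, stood at 0.36 to 0.48 in Cd4 cells, while Igtp and Irgm1, interferon-inducible GTPases, changed sign between libraries there. Type I interferon-stimulated genes were above 0 in every library for 4 of 7 ranked members in Cd4 cells (median 0.04). In Cd8 cells 8 of 9 were (0.16), and in Foxp3 cells 4 of 7 (0.20). Over all ranked genes the median was 0.03 in Cd4, 0.02 in Cd8 and 0.04 in Foxp3 cells. How many of all ranked genes were above 0 in every library was not counted. Abundant noncoding RNA genes did not follow AW112010, with medians of −0.07, −0.04 and −0.08 over 11 ranked genes. Kdm5a was at −0.04 to 0.06 in Cd4 cells, and Il10 was detected in too few cells to be ranked.

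The level of AW112010 was also compared over sums of cells, with 3 classes, 2 Ccl5 bins and 4 libraries giving 24 sums that share cells' libraries and are not independent. Among 2272 genes that averaged 50 CPM or more, the most alike on the log2 scale were S100a11 (Pearson r 0.98), Gnas, a stimulatory G protein subunit (0.98), Sec11c, a signal peptidase subunit (0.97), Aopep, an aminopeptidase (0.97), and Txn1, thioredoxin (0.97). Ccl5, which the bins used, was at 0.91. S100a11 ran from 135 to 1605 CPM over these sums. The most unlike were Lef1 (−0.94), Tpt1 (−0.94) and Snrpd3 (−0.93).

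A single further gene divided several classes, and these genes were chosen after their correlations were seen. In Cd8 cells with at least 20 Ccl5 UMIs, those without a Ly6c2 UMI held 4984 and 4717 CPM of AW112010 in the controls and 5420 and 5257 CPM in the knockdown, a ratio of 1.10. Those with a Ly6c2 UMI held 2001 and 2151 against 3666 and 3309 CPM, a ratio of 1.68. Cells with Ly6c2 made up 27.3 and 27.3% of this bin in the controls and 10.8 and 10.7% in the knockdown. The gap between groups in the upper Cd8 bin was thus smaller among cells without Ly6c2 than over the whole bin, where the ratio was 1.32. Cells with Ly6c2 were also deeper, at medians of 7937 and 7997 against 5704 and 5833 UMIs in the controls. In the knockdown these were 6649 and 6818 against 5856.5 and 5889. The r of AW112010 with depth was −0.51 to −0.14 in this bin, and the part of depth in the split was not tested.

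Klrg1 and Ms4a4b divided Foxp3 cells. Without a Klrg1 UMI they held 1215 and 1144 CPM in the controls and 2473 and 2692 CPM in the knockdown, a ratio of 2.19. With a Klrg1 UMI they held 4384 and 3256 against 4643 and 4349 CPM, a ratio of 1.18 and the groups overlapped. Cells with Klrg1 made up 39.7 and 43.8% of Foxp3 cells in the controls and 59.6 and 49.4% in the knockdown. Cells without Klrg1 had median depths of 6972 and 7473 UMIs in the controls and 5870 and 5689.5 in the knockdown. Those with Klrg1 had 5857.5 and 5879 against 6153 and 6237, and the part of depth in this split was not tested. Foxp3 cells without a Ms4a4b UMI held 4449 and 3448 against 4783 and 5081 CPM, and those with one held 1395 and 931 against 3002 and 2409 CPM. Cells with Ms4a4b were also deeper, at medians of 7192 and 7730 against 5607 and 5740.5 UMIs in the controls. In the knockdown these were 6412 and 6511 against 5582 and 5456, and the part of depth was not tested.

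Tnfrsf4 divided the Cd4 cells of the lower Ccl5 bin. Cd4 cells under 20 Ccl5 UMIs with a Tnfrsf4 UMI held 1206 and 996 CPM in the controls and 1478 and 2218 CPM in the knockdown, and those without one 285 and 277 against 495 and 457 CPM. The ratio of the groups was 1.68 with and 1.69 without Tnfrsf4.

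**Figure D5:**
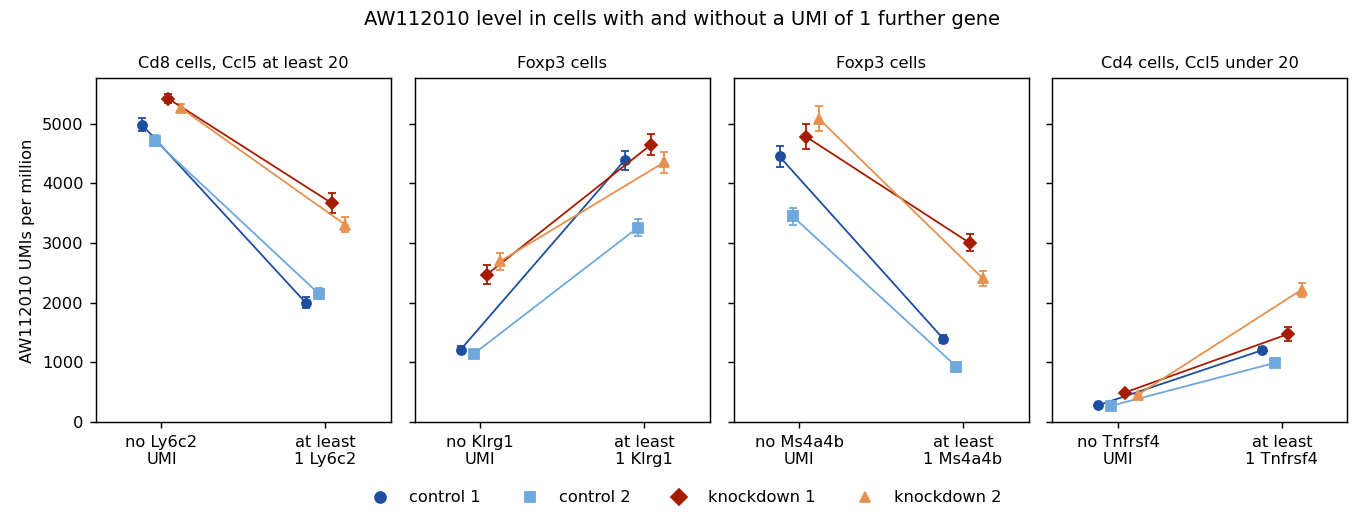
AW112010 UMIs per 1000000 RNA UMIs in cells without and with a UMI of Ly6c2, Klrg1, Ms4a4b or Tnfrsf4, with 1 line per library and 95% Poisson intervals that cover counting error only. Foxp3 cells without Klrg1 show the gap between groups (1215 and 1144 against 2473 and 2692), and those with Klrg1 overlap. The cells without Klrg1 were deeper in the controls, and the part of depth was not tested.

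AW112010 stood alone in its neighborhood. The nearest gene, the lincRNA Gm28347 at 9.98 kb, had 41 UMIs in the 3 classes, and Ms4a8a at 11.7 kb had 7, against 190891 for AW112010. Ms4a15, Ms4a18 and 1700017D01Rik had none. The gene lies in the cluster of Ms4a genes, which encode membrane proteins that span the membrane several times, and 5 of 19 Ms4a genes reached 1000 UMIs. The most abundant was Ms4a4b with 113006 UMIs at 388 kb, then Ms4a6b with 51031.

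Whether other genes differed between the groups was tested in 5 comparisons with edgeR's quasi-likelihood test on sums per library, where calls needed a Benjamini-Hochberg adjusted p below 0.05 and a log2 fold change of 1 or more in either direction. The p-values speak of the spread between these libraries of pooled cells, and the lists had been chosen with results of these data known. The log2 fold change of AW112010 in these fits, given without a test, was 0.86 in Cd4 cells under 20 Ccl5 UMIs and −0.03 in those of the upper bin. It was 0.26 and 0.44 in Cd8 cells of the lower and upper bin, and 0.78 in Foxp3 cells. Ordered with sign, from the most raised to the most lowered in the knockdown, it stood 434th of 10669, 4816th of 8785, 1726th of 10838, 818th of 9613 and 195th of 8146 genes. The median over all genes tested was between −0.01 and 0.01 in each fit.

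In Cd4 cells under 20 Ccl5 UMIs, where 2.14% of genes were called higher and 0.253% lower in the knockdown, 6 of 12 cytolytic effector genes rose (Gzmk, Nkg7, Klrk1, Ccl3, Ccl4 and Ifng) and their median log2 fold change was 1.11. Nkg7 was at 45.8 and 30.6 CPM in the controls and 379 and 371 CPM in the knockdown, a rise of 3.31 ± 0.09 (SE) on the log2 scale (adjusted p = 1.65e-14, edgeR quasi-likelihood test). Inhibitory receptor genes rose in 5 of 8 (Pdcd1, Lag3, Havcr2, Tigit and Cd244a), with a median of 2.06. Klrk1 and Tigit lost their calls without control library 1 (edgeR adjusted p = 0.0725 and 0.0877), and Tigit also without control library 2 (0.0762). Both were missed by DESeq2 (0.0781 and 0.0535), and Ifng lost its call with a bin at 10 Ccl5 UMIs (0.46 in place of 1.27 on the log2 scale). Ccl5 within this bin was 31.1 and 30.3 CPM in the controls and 275 and 305 CPM in the knockdown, and free RNA held more Ccl5 in the knockdown as given above. Nkg7 in barcodes not called as cells (1 to 20 UMIs) was at 585 and 628 CPM in the controls. In the knockdown it was at 1424 and 1469 CPM there. Summed myeloid, regulatory T cell, NK and tumor or stroma markers were also higher in these knockdown sums, as given above. The part of any of these in the calls was not tested.

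Interferon-response genes were read in the same cells, where 2.14% of all genes were called higher and 0.253% lower. Of the interferon-gamma list 1 of 20 genes rose (Irf8, a transcription factor, from 5.57 and 8.51 to 11.6 and 21.6 CPM), and the median was −0.13. This single call was not read as a result about the list. Irf8 lost the call without knockdown library 2 (0.77 on the log2 scale, adjusted p = 0.0652, edgeR quasi-likelihood test) and with a bin at 10 Ccl5 UMIs (0.78). Of 13 type I interferon-stimulated genes 5 fell (Ifit1, Ifit3, Rsad2, Usp18 and Oasl2), with a median of −0.59. Ifit3, an antiviral protein, went from 22.2 and 19.7 CPM to 5.82 and 8.44 CPM, a fall by 1.48 on the log2 scale (edgeR quasi-likelihood test, adjusted p = 1.87e-05). Ifit3 and Usp18 were under the fold limit without doublet removal (−0.83 and −0.93), and Usp18 and Ifit1 with up to 10% mitochondrial UMIs (−0.95 and −0.97). Rsad2, at −4.04 on the log2 scale, was at −0.87 and not called with lineage by surface tags (adjusted p = 0.0725, edgeR). Oasl2 lost its call without knockdown library 1 (−0.94, adjusted p = 0.0555, edgeR quasi-likelihood test), by DESeq2 (adjusted p = 0.264) and under 5 other settings (−0.82 to −1.15).

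In Cd4 cells with at least 20 Ccl5 UMIs, 0.489% of genes were called higher and 0.649% lower. Of 12 type I genes 4 fell (Ifit3, Isg15, Rsad2 and Usp18; median −0.81), of the interferon-gamma list 1 of 20 fell (Irgm2; median −0.21), and of 13 cytolytic genes 2 fell, the granzymes Gzma and Gzmb. Summed markers were apart in these sums as well, at 22.7 to 57.2 CPM in the controls and 67.2 to 87.2 CPM in the knockdown for gamma-delta T cells, 251 to 276 and 326 to 332 CPM for regulatory T cells, 17.4 to 17.8 and 21.0 to 22.2 CPM for tumor or stroma, and 8334 to 8779 and 7626 to 7962 CPM for T cells. Their part in these calls was not tested. Gzmb was at 229 and 118 CPM in the controls and 24.8 and 32.6 CPM in the knockdown, so it fell by 2.49 on the log2 scale (adjusted p = 1.99e-17, edgeR quasi-likelihood test). Of the other lists, Cd160 (1 of 8 inhibitory genes) and Klf2 (1 of 10 resting genes) fell. Usp18 and Irgm2 lost their calls when any 1 library was left out (edgeR adjusted p from 0.0542 to 0.493), and Rsad2 and Klf2 without control library 1 (−0.84 and −0.82 on the log2 scale). Isg15 lay under the fold limit without doublet removal (−0.92) and without an upper gene limit (−0.96), and Klf2 lost its call with a stricter doublet limit (−0.67, edgeR adjusted p = 0.359). DESeq2 gave no adjusted p for any of the listed genes called here, Il10 included. The ratio of AW112010 in these same sums was 0.934.

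In Cd8 cells under 20 Ccl5 UMIs, 1.07% of genes were called higher and 0.0646% lower. Cytolytic genes rose in 7 of 13 (median 1.40) and inhibitory genes in 5 of 8 (median 2.25), and no gene of the interferon lists was called by edgeR or DESeq2, with medians of −0.35 for interferon-gamma and −0.36 for type I. At an unadjusted p under 0.05 stood 16 of 20 and 8 of 13 of these genes, beside 2100 of all 10838 genes tested. Gzmb, at 1.07 and 2.32 against 4.86 and 5.19 CPM, lost its call without control library 1 (adjusted p = 0.118, edgeR quasi-likelihood test), without an upper gene limit (0.46 on the log2 scale in place of 1.67, adjusted p = 0.306), with a bin at 10 Ccl5 UMIs (0.0802) and by DESeq2 (0.0732). Cd244a lost its call without control library 1, control library 2 or knockdown library 2 (edgeR adjusted p from 0.269 to 0.588), and Havcr2 and Tigit without control library 2 (0.0852 and 0.0857). Ccl5 in this bin was 60.1 and 75.4 CPM in the controls and 221 and 244 CPM in the knockdown. Summed regulatory T cell markers were 6.99 to 9.65 and 13.2 to 14.4 CPM, gamma-delta markers 7.13 to 8.10 and 8.64 to 10.7 CPM, tumor or stroma markers 3.36 to 4.49 and 2.16 to 2.42 CPM and T cell markers 3119 and 2851 to 2888 CPM. The part of these in the calls was not tested.

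In Cd8 cells with at least 20 Ccl5 UMIs, 0.915% of genes were called higher and 1.21% lower, and 9 of 11 resting genes fell (median −1.49). Klf2 went from 154 and 146 CPM to 37.3 and 28.2 CPM, a fall by 2.18 on the log2 scale (edgeR quasi-likelihood test, adjusted p = 1.99e-24). Ccr7 lost its call without control library 1 (−0.58), and with a stricter doublet limit 4 of the 9 did (Ccr7, Dapl1, Lef1 and S1pr1, at −0.73 to −0.85), as they did without doublet removal (−0.71 to −0.95). Gzma was the 1 cytolytic gene called of 13, and it fell, but without control library 2 its log2 fold change of −0.86 lay under the fold limit. With a stricter doublet limit Gzma was at −0.41 (adjusted p = 0.468, edgeR) and with lineage by surface tags at −0.29 (adjusted p = 0.0808). No gene of the interferon lists and no inhibitory receptor was called there by edgeR or DESeq2 (which gave no adjusted p for 3, 1 and 1 of them), with medians of −0.15, −0.53 and 0.44. At an unadjusted p under 0.05 were 12 of 20, 9 of 13 and 8 of 8, beside 2252 of all 9613 genes tested. Among 6 Ms4a genes tested Ms4a4c fell, from 57.6 and 56.3 CPM to 15.0 and 20.6 CPM. Gamma-delta T cell, regulatory T cell, NK, B cell and tumor or stroma markers and Ccl5 were apart between the groups in these sums, as given above. Their part in these calls was not tested.

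In Foxp3 cells 0.258% of genes were called higher and 0.246% lower, and of the lists only resting genes were called, 2 of 11. They were Ccr7, a lymph node homing receptor (94.9 and 91.1 against 24.2 and 28.3 CPM), and Satb1, and the list median was −0.66. DESeq2 gave neither gene an adjusted p, and with at least 1 Foxp3 UMI Satb1 lay under the fold limit (−0.87). Of all 8146 genes tested 1190 had an unadjusted p under 0.05. The interferon-gamma list had a median of 0.17 with no call among 20, where 9 genes had an unadjusted p under 0.05 and DESeq2 called none but gave no adjusted p for 9 genes. The type I genes (12 tested), cytolytic genes (6) and inhibitory receptors (6) also had no call by edgeR, and DESeq2 called none but gave no adjusted p for 8, 2 and 4 of them, with 4, 4 and 2 at an unadjusted p under 0.05 and medians of 0.25, 0.41 and 0.24. B2m was at 3321 and 3295 against 4541 and 4349 CPM, a log2 fold change of 0.44 ± 0.07 that stayed under the fold limit (adjusted p = 0.00133, edgeR quasi-likelihood test). Ms4a4b, the gene lowest in correlation with AW112010 in these cells, was at 578 and 522 against 328 and 396 CPM, also under the fold limit at −0.59 ± 0.10.

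Noncoding RNA genes were called by edgeR in none of the 5 comparisons, with 13 or 14 tested and 4 to 6 at an unadjusted p under 0.05 in each. Of all genes, 2281 of 10669 and 1426 of 8785 were at such a p in Cd4 cells of the lower and upper bin. In Cd8 cells 2100 of 10838 and 2252 of 9613 were, and in Foxp3 cells 1190 of 8146. DESeq2 called none either, but it gave no adjusted p for 10 of 13 in Cd4 cells of the upper bin, for 3 of 14 in Cd8 cells of that bin and for 10 of 13 in Foxp3 cells. Their medians ran from −0.27 in Foxp3 cells to 0.20 in Cd4 cells of the upper bin. Malat1, a nuclear RNA, was at 15336 and 14438 against 16010 and 16501 CPM in Cd4 cells of the lower bin. Among Ms4a genes the only other call was Ms4a7 in Cd4 cells of the lower bin, which rose by 1.43 on the log2 scale, a call that DESeq2 did not make. Its log2 fold change was 1.05 without knockdown library 1 and 1.82 without knockdown library 2, and myeloid markers were also higher in these knockdown sums, as given above. Their part in the call was not tested.

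Il10 and Kdm5a were read because they have been linked to AW112010. In Cd4 cells with at least 20 Ccl5 UMIs Il10 was at 47.0 and 52.3 CPM in the controls and 4.83 and 4.96 CPM in the knockdown, from 132 UMIs in all, a fall by 3.26 ± 0.28 (SE) on the log2 scale (edgeR quasi-likelihood test, adjusted p = 3.06e-13). DESeq2 gave Il10 no adjusted p in those sums. AW112010 in those same sums was 6396 and 6519 against 6194 and 5864 CPM. In Cd4 cells of the lower bin Il10 was at 0.290 and 0.655 against 1.84 and 5.56 CPM from 43 UMIs, a log2 fold change of 3.09 ± 0.55 (adjusted p = 0.00088). That call was lost without control library 1 (2.58, adjusted p = 0.0620, edgeR quasi-likelihood test) and without knockdown library 2 (2.00, adjusted p = 0.212). In Foxp3 cells Il10 was at 26.7 and 16.2 against 51.5 and 22.5 CPM and was not called (adjusted p = 0.224). Kdm5a was called in no comparison, with log2 fold changes between −0.35 and 0.14 and unadjusted p of 0.0616 and above.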

How the data were processed

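The deposited tables hold raw counts of UMIs per gene and per surface tag for each barcode. The authors made them with Cell Ranger, which aligns with STAR, on the mouse build mm10 and analysed them with Seurat (4.0.0 in the submitters' processing notes), and neither ambient RNA nor doublets had been removed from the tables. The lineages, the Ccl5 bins, the gene lists and AW112010 itself were chosen with earlier results of these data known.

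Cells with 200 to 3000 genes and at most 5% mitochondrial UMIs were kept. Doublets were scored per library as the share of simulated doublets (2 per cell) among neighbors in 30 principal components of 2000 variable genes and removed above Otsu's threshold, which took 28.2 to 29.3% of cells. Of the removed cells 39.1 to 43.8% held RNA of both coreceptors, against 2.59 to 4.37% of those kept. This left more cells than the study describes analysing, and the classes were rebuilt here, so their sizes need not match the study's.

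Levels are UMIs of a gene per 1000000 RNA UMIs of a class in a library, and intervals are exact 95% Poisson intervals that cover counting error only. Correlations used log(1 + UMIs per 10000) for genes and log(1 + count) centered per cell for tags. Sums per library, class and bin were fitted with edgeR 4.0.16 (R 4.3.3, TMM, filterByExpr, quasi-likelihood test), with DESeq2 1.42.0 as an alternative, after tests on simulated counts. All 4 libraries entered every fit with no covariate. The SE beside a log2 fold change was derived from the F value of the quasi-likelihood test, so it restates that test. Python 3.11.15 with numpy 2.4.6, scipy 1.17.1, scikit-learn 1.9.0 and matplotlib 3.10.9 was used otherwise.

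Genes are named by rule. For each class they are the 10 highest and 5 lowest correlations, ranked by the weakest library, among genes with a UMI in at least 10% of the cells of every library, without mitochondrial, ribosomal protein and receptor segment genes. To these come the 5 highest and 3 lowest tags, the 5 genes most alike over the 24 sums, the neighbors, the Ms4a genes and the listed genes that were called. Further genes named within Ccl5 bins, as dividing genes, among the least alike or as values beside a list were chosen after their values were seen. Some items that the rule names are not reported here. Columns of no sample were not met.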

Additional observations from a re-analysis of the deposited data

Results flagged for a closer look

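AW112010 in Cd4 cells went opposite ways in the Ccl5 bins. Both knockdown libraries lay above both controls under 20 Ccl5 UMIs (ratio 1.76) and below them at 20 or more (ratio 0.934). The difference between the bins was not tested, and with TMM-scaled library sizes the groups overlapped in the upper bin (ratio 0.999). Ccl5 itself also lay above the controls in the knockdown under 20 Ccl5 UMIs and below them at 20 or more. Its part in these ratios was not tested.

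A signal stood in barcodes that were not called as cells. With 1 to 20 UMIs each, they held a mean of 1902 CPM of AW112010 in the knockdown libraries against 932 CPM in the controls.

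A pair of listed genes was called in opposite directions in different comparisons, and these differences between comparisons were not tested. DESeq2 gave neither gene an adjusted p in Cd4 cells with at least 20 Ccl5 UMIs. Gzmb, a granzyme of cytolytic cells, had a log2 fold change of −2.49 in Cd4 cells with at least 20 Ccl5 UMIs and of 1.67 in Cd8 cells under 20, where the call was lost without control library 1 (adjusted p = 0.118, edgeR quasi-likelihood test), without an upper gene limit (0.46, adjusted p = 0.306), with a bin at 10 Ccl5 UMIs (0.0802) and by DESeq2 (0.0732). Il10 had a log2 fold change of 3.09 in Cd4 cells under 20 Ccl5 UMIs and of −3.26 in those with at least 20, and the first of these calls was lost without control library 1 (adjusted p = 0.0620) or knockdown library 2 (adjusted p = 0.212, edgeR).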

How the results depend on the processing

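With 2 libraries of pooled tumors per group, read here as lanes of 1 pool, the spread may not cover animals, and Foxp3 cells in the upper bin were too few to order. No ratio of AW112010 levels crossed 1 except that of Foxp3 cells in the upper bin. Moved values of the ratio of levels follow. Over all Cd4 cells (3.90) it was 3.46 with a stricter doublet limit, 3.58 with 10% mitochondrial UMIs, 3.52 thinned and 3.59 with TMM. In Cd4 cells of the lower bin (1.76) it was 2.08 without doublet removal, 1.36 with a bin limit of 10 and 2.66 with 40. In the upper bin (0.934) it was 0.967 without doublet removal, 0.899 with the stricter limit, 0.996 without an upper gene limit, 0.978 with lineage by tags and 0.999 with TMM. Over all Cd8 cells (2.83) it was 2.41 with the stricter limit, 2.63 with 10% mitochondrial UMIs and 2.61 with TMM. In their lower bin (1.14) the same 3 settings gave 1.02, 1.07 and 1.18, no doublet removal 1.18, and bin limits of 10 and 40 gave 1.02 and 1.46. In their upper bin (1.32) it was 1.23 with the stricter limit, 1.44 without an upper gene limit, 1.45 and 1.23 with bins at 10 and 40, 1.22 thinned and 1.37 with TMM. In Foxp3 cells it was 1.94 with at least 1 Foxp3 UMI (1.69), and in their upper bin (1.05) 0.832 with a bin at 40 and 1.15 with TMM. A library size without Gm42418 and AY036118 moved none beyond the spread.

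The difference in upper-bin shares of Cd4 cells (38.2 percentage points) was 34.1 with the stricter doublet limit, 32.0 with 10% mitochondrial UMIs, 37.0 with tags, and 40.4 and 32.9 with bins at 10 and 40. For Cd8 cells (44.1) the first pair of settings gave 39.2 and 38.4, and for Foxp3 cells (3.43) 1 Foxp3 UMI gave 6.03 and a bin at 10 gave 6.37. The mean r of AW112010 with Ccl5 was 0.766 in Cd4 cells and 0.556 by Spearman, and 0.777 in Cd8 cells, 0.624 by Spearman and 0.667 thinned, while in Foxp3 cells 0.357 stayed within the spread of the libraries. By Spearman the groups differed, with 0.349 and 0.317 in the controls and 0.781 and 0.775 in the knockdown in Cd4 cells. In Cd8 cells it was 0.446 and 0.512 against 0.752 and 0.785. Other bin limits were not run for the correlations within bins, and the others used all cells of a class.

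Genes called in Cd4 cells of the lower bin (255) were 485 with a bin at 40, 126 by DESeq2 and 1005 without a fold limit. In the upper bin (100) they were 6 by DESeq2 and 465 without a fold limit. In Cd8 cells of the lower bin (123) they were 226 without doublet removal, 234 with a bin at 40, 65 by DESeq2 and 722 without a fold limit. In the upper bin (204) they were 85 with the stricter doublet limit, 316 without an upper gene limit, 129 with a bin at 40, 39 by DESeq2 and 1152 without a fold limit. In Foxp3 cells (41) they were 75 and 20 without doublet removal and with the stricter limit, 64 with 10% mitochondrial UMIs, 102 with 1 Foxp3 UMI, 6 by DESeq2 and 213 without a fold limit. DESeq2 gave no adjusted p for 93 of the 100, 164 of the 204 and 35 of the 41 genes. Of the alternatives for listed genes that were called, other than the absent fold limit, 716 kept the direction and the call and 69 lost the call, and in 13 more DESeq2 gave no adjusted p.

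With replicate number as a block 282, 102, 156, 212 and 64 genes were called in the order Cd4 lower and upper, Cd8 lower and upper, and Foxp3. Deviations of same-numbered libraries correlated between −0.00690 and 0.0535. That r was taken over all genes tested, those of low counts included, so it cannot exclude a shared batch. The labels give only a replicate number, and no pairing was used.

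Leaving out each library in turn gave ratios of 3.77 to 4.04 (all Cd4), 1.67 to 1.86 and 0.908 to 0.959 (lower and upper bin), 2.68 to 2.97 (all Cd8), 1.11 to 1.17 and 1.30 to 1.35, and 1.54 to 1.87 (all Foxp3), 1.59 to 1.92 and 0.973 to 1.12. Differences in shares were 37.5 to 38.9, 42.3 to 45.9 and 2.33 to 4.53 points, and r was 0.740 to 0.790, 0.754 to 0.804 and 0.319 to 0.386. Calls were 131 to 271, 65 to 97, 64 to 131, 138 to 212 and 48 to 64 in the order above. The causes of these moves were not tested.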
